A study of Mus musculus with 21 samples.

Results

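The receptor for the cytokine LIF (leukaemia inhibitory factor) and the signalling chain behind it were followed through cultured mouse pluripotent cells and early mouse epiblasts. The 9 genes were chosen by name, as rows of the deposited count table, out of 33861 genes in all: the receptor chains Lifr and Il6st, the kinases Jak1 and Jak2, the transcription factor Stat3, the inhibitors Socs3 and Socs2, and the kinases Pim1 and Pim3. All 9 were found, and all 9 passed the filter on low counts in every comparison.

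LIF binds a receptor made of LIFR and gp130, the protein of Il6st, which the IL-6 family cytokines share. JAK kinases bound to these chains then phosphorylate STAT3, which enters the nucleus and turns on target genes, among them Socs3, whose product shuts the receptor down. In mouse embryonic stem cells this pathway is known for sustaining self-renewal, whereas epiblast stem cells, which resemble a later stage, are grown without relying on it.

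The series held 21 samples: 12 of cultured cells, each made from 1000 cells, and 9 single epiblasts, the embryonic cell layer that gives rise to the body. FS cells, named formative stem cells in the labels and grown in a medium called A3XR, came from line 1 (passages 10, 11 and 18) and line 2 (passages 12, 13 and 16). AF and AFX cells were labelled EpiSCs, that is, epiblast stem cells, with E14, the name of an embryonic stem cell line, in their descriptions; each was grown in the medium of its own name and sampled at passages 14, 15 and 16. The epiblasts came from embryonic day 5.0 (E5.0; embryos 1, 2 and 4), 5.5 (E5.5; embryos 1 to 3) and 6.0 (E6.0; embryos 1 to 3), the last being given as 6.5 in another label field. The labels name no strain, no genetic change and no contents of the media beyond these names. Passages of 1 line are not separate derivations, so p-values among cultured cells measure the spread between passages and, in FS, between 2 lines, and FS differed from AF and AFX in line as well as medium. Tests of cultured cells against epiblasts compare the equally weighted mean of FS, AF and AFX with that of the stages. Their p-values measure the spread within these groups and not the spread between them.

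Levels are given in CPM, read counts scaled to a common library size with TMM over all 21 samples. Total counts per sample ran from 5827093 to 15916800, and 3 counts were worth 0.171 to 0.561 CPM. The deepest evidence was for Socs2, with 246 to 828 counts per sample, and the thinnest for Jak2, with 7 to 333, and Socs3, with 7 to 142. The 8 genes of a list of pluripotent epiblast markers were found in every group, with sums of 1265 to 2777 CPM in cultured samples and 3814 to 7161 CPM in epiblasts. Markers of other cell types differed between groups. The summed level of 10 feeder fibroblast genes was 233 to 269.6 CPM in AF, against 32.9 to 61.1 in AFX, 18.01 to 49.2 in FS and 10.9 to 26.3 in epiblasts. The sum of 14 visceral endoderm genes was 333 to 915 CPM at E5.0, 54.6 to 96.2 at E5.5 and 32.0 to 35.7 at E6.0, against 67.6 to 102 in AF, 14.4 to 28.4 in AFX and 7.95 to 13.2 in FS. In AF the endoderm sum was mostly Sox17, Gata6, Dab2 and Gata4. In bulk samples like these, fewer cells of a type and less RNA per cell cannot be told apart.

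Of the 9 genes, 7 passed the test (edgeR's quasi-likelihood test, Benjamini-Hochberg adjusted over all genes tested, threshold 0.05) in at least 1 of 9 comparisons, and 2, Jak1 and Socs3, in none. Several comparisons share their samples: AF enters FS against AF and AFX against AF, FS enters those against AF, AFX and E5.5, and each epiblast stage enters 2 of the stage comparisons, so their results are given side by side and not as independent findings. The plot of levels by sample shows all 9 genes.

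**Figure D1:**
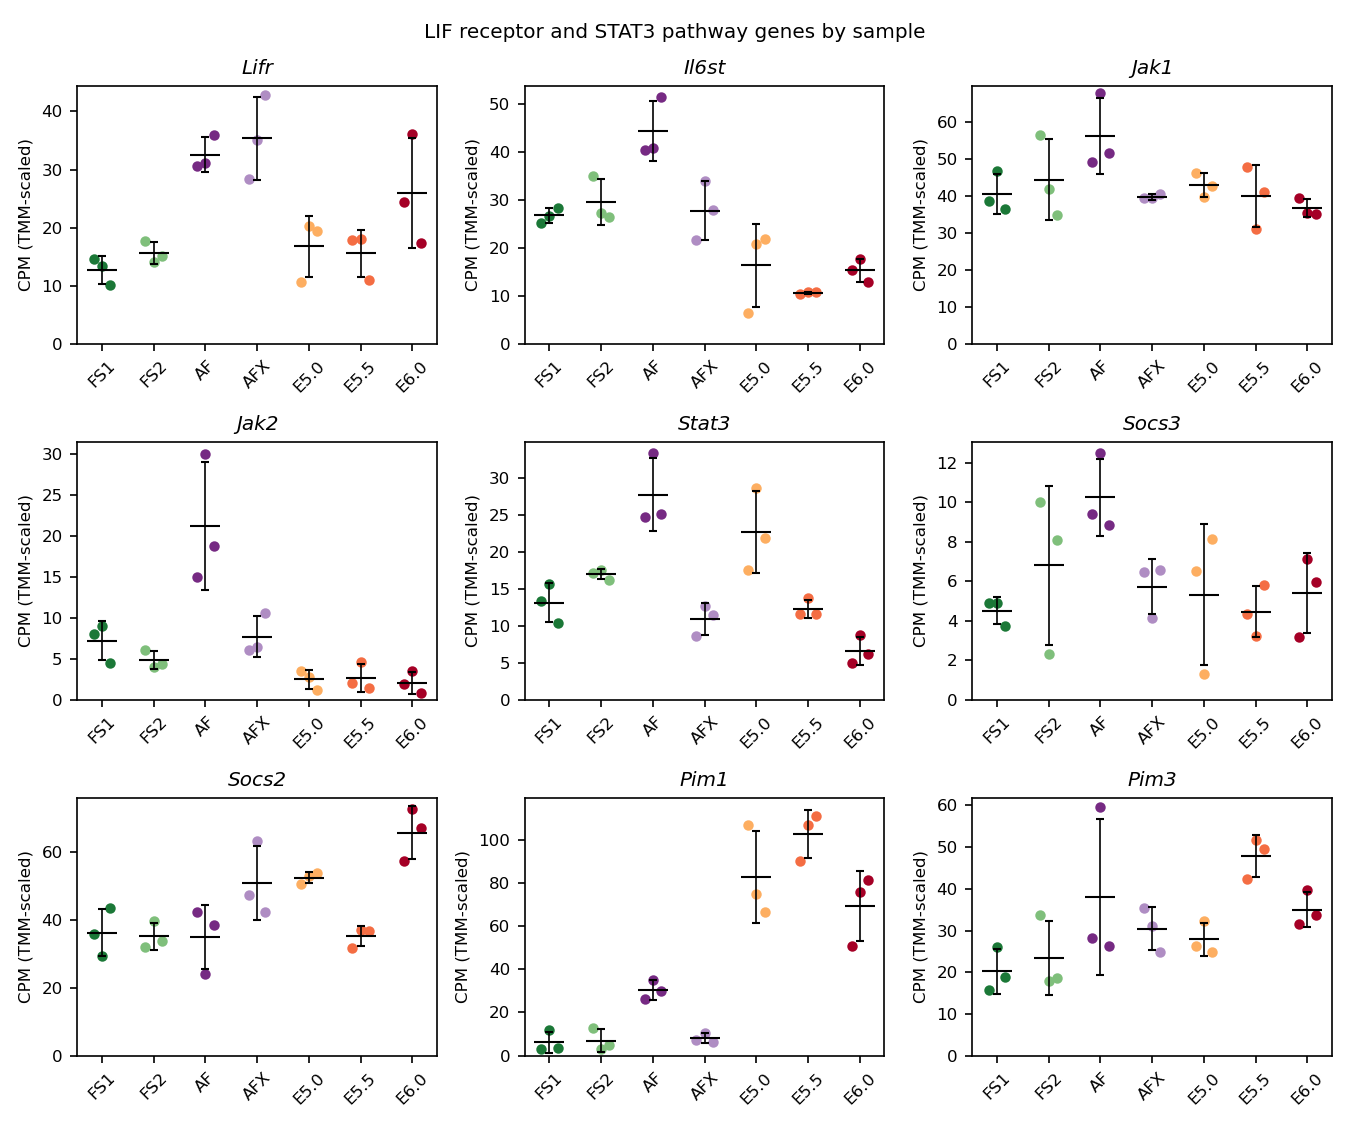
Level of each gene in each sample (CPM, TMM-scaled, linear axis from 0) in FS lines 1 and 2 (FS1, FS2), AF, AFX and the 3 epiblast stages; points are samples, and bars show the mean and SD of 3 samples. Pim1 separates the epiblasts, at 50.7 to 111 CPM, from all cultured samples, at 2.81 to 35.0, and Stat3 falls from E5.0 to E6.0.

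The receptor chains were compared first. Lifr, the chain specific to LIF and a few related cytokines (chr15:7090614-7197489, plus strand, GRCm38), measured between 10.1 and 17.6 CPM in the 6 FS samples, with a median of 14.3. In AF it measured 30.5, 31.2 and 36.0 CPM at passages 14, 15 and 16, and in AFX 28.4, 35.0 and 42.8 CPM. No FS sample reached the lowest AF or AFX sample, while AF and AFX overlapped.

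FS cells had 2.30-fold less Lifr than AF (log2 fold change -1.20 ± 0.16 (SE), n = 6 and 3, adjusted p = 0.000167) and 2.51-fold less than AFX (log2 fold change -1.33 ± 0.16, adjusted p = 0.000128). AFX and AF differed by 0.13 ± 0.19 on the log2 scale (adjusted p = 0.777). Lifr was the only one of the 9 genes called in FS against AFX, where 8.70% of all genes were called, 3.78% higher and 4.92% lower. Beside these values, the feeder fibroblast sums of AFX and FS overlapped, the visceral endoderm sum of AFX (14.4 to 28.4 CPM) lay above that of FS (7.95 to 13.2), and of the marker genes tested 2 of 9 feeder genes and 2 of 6 endoderm genes were called lower in FS than in AFX. Their part in the Lifr result was not tested. Both FS lines were low: line 1 measured 14.6, 13.4 and 10.1 CPM and line 2 measured 17.6, 14.1 and 15.1 CPM.

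In the epiblasts Lifr measured 10.7, 20.2 and 19.4 CPM at E5.0, 17.8, 18.1 and 10.9 CPM at E5.5, and 24.4, 36.1 and 17.3 CPM at E6.0. Embryo 2 of E6.0 stood highest, and all 3 stages overlapped. No stage comparison passed the test, the largest being E6.0 against E5.5 (log2 fold change 0.71 ± 0.32, adjusted p = 0.252). E6.0 against E5.0 (0.57, adjusted p = 0.237) passed with a replicate block of embryo number (adjusted p = 0.0486). FS and E5.5 differed by -0.14 ± 0.24 on the log2 scale (adjusted p = 0.659). From low to high, the mean levels ran FS line 1, E5.5, FS line 2, E5.0, E6.0, AF and AFX, and every pair of neighbours overlapped.

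Il6st, encoding the shared signalling chain gp130 (chr13:112464070-112510086, plus strand), lay in AFX within reach of FS. It measured 25.2 to 35.1 CPM in FS with a median of 26.9, 40.5, 40.9 and 51.6 CPM in AF, and 21.6, 33.9 and 27.8 CPM in AFX. All AF samples lay above all FS and AFX samples, and FS and AFX overlapped. Il6st was 1.57-fold lower in FS than in AF (log2 fold change -0.65 ± 0.15, adjusted p = 0.00719) and 1.59-fold lower in AFX than in AF (-0.67 ± 0.18, adjusted p = 0.0304). The second call was lost with both groups alone (adjusted p = 0.0714) and without AF passage 16 or AFX passage 14 or 16, and the log2 fold change ran from -0.84 to -0.52 over the samples left out. FS and AFX differed by 0.02 ± 0.16 (adjusted p = 0.966).

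Epiblasts held less Il6st on average than cultured cells. The ranges overlapped slightly, with AFX passage 14 at 21.6 CPM and E5.0 embryo 4 at 21.9 CPM. The stages measured 6.38, 20.8 and 21.9 CPM at E5.0, 10.3, 10.8 and 10.7 CPM at E5.5, and 15.4, 17.6 and 12.9 CPM at E6.0. Embryo 1 of E5.0 was the lowest of all 21 samples, and E5.5 embryos lay below every E6.0 embryo. Il6st was 2.34-fold higher in cultured cells than in epiblasts (log2 fold change 1.22 ± 0.16, n = 12 and 9 samples, spread taken within groups, adjusted p = 7.61e-07). It was 2.66-fold higher in FS than at E5.5 (1.41 ± 0.26, adjusted p = 0.000162). None of the 3 stage comparisons passed the test, but E5.5 against E5.0 (-0.67 ± 0.37, adjusted p = 0.312) passed without E5.0 embryo 1 (-1.05, adjusted p = 0.0243).

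The balance of both chains, taken as CPM per kilobase of exon within a sample, differed between the media. Lifr to Il6st was 0.365 to 0.597 in FS line 1, 0.517 to 0.589 in FS line 2, 0.718 to 0.785 in AF and 1.06 to 1.58 in AFX. These ranges of FS, AF and AFX did not overlap. Epiblasts measured 0.913 to 2.11, so Lifr was near or above Il6st per length in AFX and epiblasts and below it in FS and AF. These ratios were read as a description without a test. The plot of ratios shows them with those of Pim1 to Pim3.

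**Figure D2:**
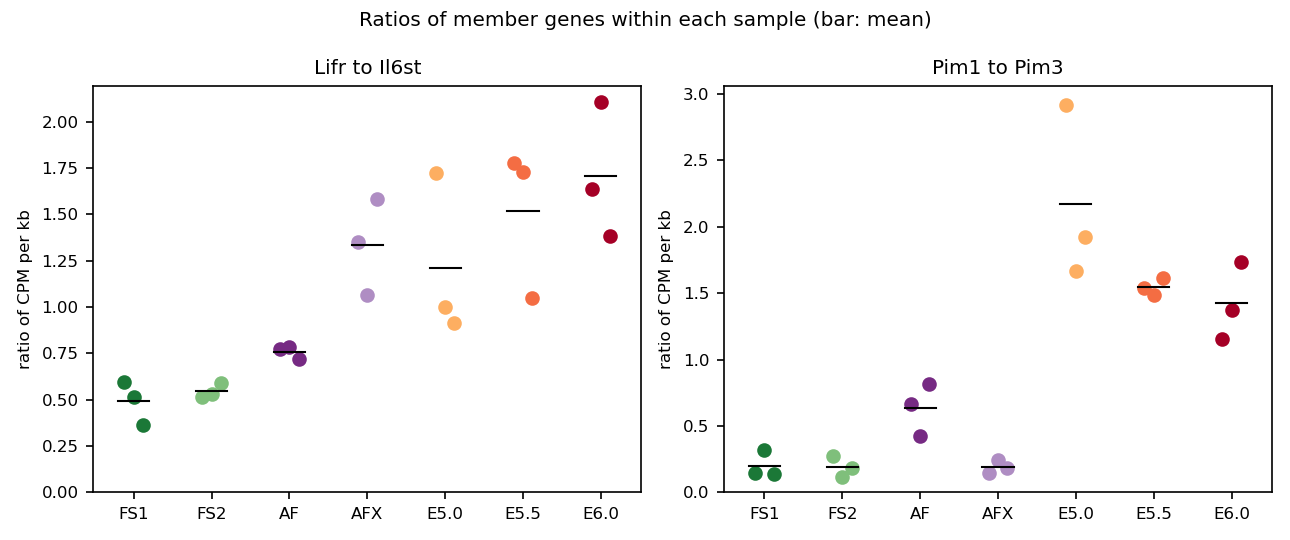
Ratio of CPM per kilobase of exon within each sample, Lifr to Il6st on the left and Pim1 to Pim3 on the right, on linear axes from 0; points are samples and bars their mean per group. Lifr to Il6st lies between 0.365 and 0.597 in FS and between 1.06 and 1.58 in AFX, and Pim1 to Pim3 is at most 0.819 in cultured samples and at least 1.16 in epiblasts.

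The JAK kinases stand next in the chain. Jak1, the kinase on which gp130 signalling chiefly depends (chr4:101152367-101265282, minus strand), was the steadiest gene of the 9: it measured 34.8 to 68.0 CPM in cultured samples and 31.0 to 47.8 CPM in epiblasts. The highest sample was AF passage 15 and the lowest E5.5 embryo 2. No comparison of Jak1 passed the test. The nearest was FS against AF, where FS had a median of 40.3 CPM and AF measured 49.3, 68.0 and 51.6 CPM (log2 fold change -0.40 ± 0.15, adjusted p = 0.0716); without FS line 2 passage 12 it passed. Cultured cells against epiblasts (0.18 ± 0.10, adjusted p = 0.105) passed with a filter of at least 5 CPM (adjusted p = 0.0426) and without E5.5 embryo 1 (adjusted p = 0.0409).

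Jak2, which many cytokine receptors use (chr19:29251828-29313080, plus strand), was high in AF. It measured 14.95, 29.9 and 18.7 CPM there, 3.96 to 8.98 CPM in FS with a median of 5.24, and 6.09, 6.36 and 10.6 CPM in AFX. All AF samples exceeded every other sample of the series. Jak2 was 3.57-fold lower in FS than in AF (log2 fold change -1.84 ± 0.29, adjusted p = 0.000455) and 2.73-fold lower in AFX than in AF (-1.45 ± 0.35, adjusted p = 0.0179). The latter call was lost without AF passage 15, AFX passage 14 or AFX passage 15.

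In epiblasts Jak2 was low, from 0.758 to 4.58 CPM with a median of 2.01, on 7 to 40 counts per embryo. Cultured cells held 4.12-fold more (log2 fold change 2.04 ± 0.28, adjusted p = 1.72e-06). FS held 2.23-fold more than E5.5 (1.15 ± 0.45, adjusted p = 0.0392), a call lost without any of 5 samples (FS line 1 passages 10 and 11, FS line 2 passage 12, E5.5 embryos 1 and 3) and with FS line 2 alone. Per kilobase, Jak2 was 0.136 to 0.633 of Jak1 in cultured samples and 0.0309 to 0.212 in epiblasts.

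Stat3, the transcription factor on which the pathway converges (chr11:100885098-100939540, minus strand), changed both between media and between stages. It measured 24.7, 33.5 and 25.1 CPM in AF, 10.4 to 17.5 CPM in FS with a median of 15.95, and 8.59, 12.7 and 11.5 CPM in AFX. AF lay above all FS and AFX samples, and FS overlapped AFX. Stat3 was 1.84-fold lower in FS than in AF (log2 fold change -0.88 ± 0.18, adjusted p = 0.00314) and 2.53-fold lower in AFX than in AF (-1.34 ± 0.22, adjusted p = 0.00222). FS and AFX differed by 0.46 ± 0.19 (adjusted p = 0.167).

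Between the FS lines, Stat3 measured 13.3, 15.7 and 10.4 CPM in line 1 and 17.2, 17.5 and 16.2 CPM in line 2, ranges that did not overlap. Their difference did not pass the test (log2 fold change 0.37 ± 0.20, adjusted p = 0.367). None of the 9 genes passed in FS line 2 against line 1, in edgeR or in DESeq2, and 0 had an unadjusted p under 0.05, where 3.85% of all genes were called, 2.65% higher and 1.20% lower.

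Along the epiblast stages Stat3 measured 17.5, 28.6 and 21.9 CPM at E5.0, 11.6, 13.7 and 11.5 CPM at E5.5, and 4.99, 8.69 and 6.17 CPM at E6.0. The 3 stages did not overlap. From E5.0 to E6.0 Stat3 fell 3.57-fold (log2 fold change -1.84 ± 0.29, n = 3 and 3, adjusted p = 0.000563), the only call among the 9 genes in that comparison, where 21.8% of all genes were called, 10.2% higher and 11.6% lower. The separate steps missed the threshold: E5.5 against E5.0 gave -0.93 ± 0.28 (adjusted p = 0.0639) and E6.0 against E5.5 gave -0.91 ± 0.29 (adjusted p = 0.0977). The first step passed with no filter, in DESeq2 and without E5.0 embryo 1, and the second with a fit on both groups alone.

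Some marker sums of other cell types moved with Stat3. In cultured cells the feeder fibroblast, visceral endoderm and extraembryonic ectoderm sums were all highest in AF, where Stat3 was highest. Of the 10 feeder genes 0 were at 0 in all AF samples. Of the 9 tested, 7 were called lower in FS than in AF, against 10.6% of all genes, and 1 had a positive fold change. In AFX against AF, 5 feeder genes were called lower and 1, Thy1, higher. Of 14 visceral endoderm genes, Afp and Apoa4 had 0 counts in all 3 AF samples, and Elf5, of the extraembryonic ectoderm, likewise. The AF endoderm sum was mostly Sox17, Gata6, Dab2 and Gata4 (means of 31.4, 18.2, 16.5 and 10.2 CPM). Cubn and Apob, with means of 364 and 106 CPM at E5.0, had means of 0.369 and 1.17 CPM in AF. Extraembryonic ectoderm sums were 84.8 to 165 CPM in AF, 44.0 to 78.3 in AFX and 30.3 to 56.9 in FS. Eomes made up most of them, with means of 85.4, 52.9 and 38.2 CPM in that order, and Cdx2 had a mean of 1.46 CPM in AF. At E5.0, embryos 1, 2 and 4 had visceral endoderm sums of 780.1, 915 and 333 CPM, beside 17.5, 28.6 and 21.9 CPM of Stat3. Of the 12 visceral endoderm genes tested between E5.0 and E6.0, 10 were called lower at the later stage, against 11.6% of all genes. Among the other sums, extraembryonic ectoderm measured 51.9 to 114 CPM at E5.0, 26.5 to 54.0 at E5.5 and 75.7 to 199.6 at E6.0, most of it Eomes (means of 67.2, 34.0 and 119 CPM), a gene that epiblast cells entering gastrulation also use. Of the 5 extraembryonic ectoderm genes tested from E5.0 to E6.0, 1 had a positive and 4 a negative fold change. The feeder fibroblast genes summed to means of 19.3, 15.8 and 15.7 CPM at the 3 stages in order. Whether such cells were present, and their part in the Stat3, Il6st, Jak2 and Pim1 results, was not tested. The plot of Stat3 against marker sums shows each sample.

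**Figure D3:**
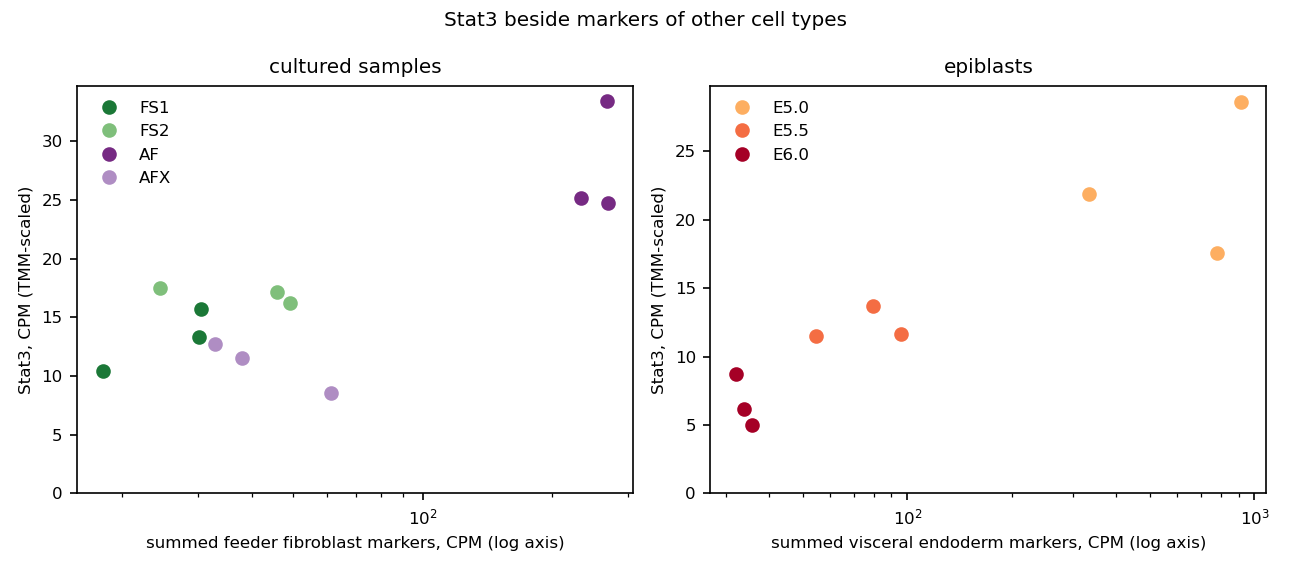
Stat3 level (CPM, linear axis from 0) against the summed level of feeder fibroblast markers in cultured samples (left) and of visceral endoderm markers in epiblasts (right), both sums in CPM on a log axis; each point is a sample. The 3 AF samples, with feeder sums of 233 to 269.6 CPM, hold the highest Stat3 of the cultured samples, and the 3 E5.0 embryos, with endoderm sums of 333 to 915 CPM, the highest of the epiblasts.

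Cultured cells as a whole held 1.33-fold more Stat3 than epiblasts (log2 fold change 0.42 ± 0.14, adjusted p = 0.0115), with cultured samples at 8.59 to 33.5 CPM (median 15.95) and epiblasts at 4.99 to 28.6 CPM (median 11.6). The ranges overlapped widely, and the call was lost with cultured and epiblast samples as 2 pooled groups. Counts on the Stat3 locus share 72 exon bases with Stat5a on the other strand, and whether strand was used in counting is not given in the sources used here.

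Genes with the most similar pattern to Stat3 over the 21 samples, among 8195 genes, were Nid1 (Pearson r = 0.919 on log2 CPM), Zc3hav1 (r = 0.880) and Lmna (r = 0.879). Nid1, encoding a basement membrane protein, had means of 44.5 CPM in AF, 26.0 at E5.0 and 1.69 at E6.0. For Lifr the closest were Trps1 (r = 0.827), Zfp36l1 (r = 0.814) and Zyx (r = 0.812), and for Socs3 they were Rcn1 (r = 0.811), Thbs1 (r = 0.758) and Tank (r = 0.758). Samples of 1 group share their line or stage in these correlations, which describe likeness of levels only.

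The SOCS inhibitors gave no uniform picture. Socs3, the STAT3-induced protein that blocks gp130 and its JAKs (chr11:117966079-117970047, minus strand), measured 2.29 to 10.02 CPM in FS with a median of 4.91, 9.39, 12.5 and 8.88 CPM in AF, and 6.49, 4.11 and 6.58 CPM in AFX. AF lay above AFX, and FS overlapped both. Neither FS against AF (log2 fold change -0.84 ± 0.35, adjusted p = 0.1065) nor AFX against AF (-0.82 ± 0.42, adjusted p = 0.270) passed, although the first did with FS line 1 alone and without FS line 2 passage 12, the FS sample with the most Socs3. Within FS line 2 Socs3 measured 10.02, 2.29 and 8.11 CPM, a wider spread than the 3.73 to 4.91 CPM of line 1.

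Epiblasts measured 6.50, 1.31 and 8.15 CPM of Socs3 at E5.0, 4.36, 3.20 and 5.81 CPM at E5.5, and 3.15, 7.11 and 5.95 CPM at E6.0. The stages overlapped, on 7 to 81 counts per embryo, and Socs3 differed by -0.05 ± 0.54 from E5.0 to E6.0 (adjusted p = 0.961), the interval in which Stat3 fell.

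Socs2, an inhibitor best known from growth hormone signalling (chr10:95385362-95417180, minus strand), dipped at E5.5. It measured 50.7, 53.1 and 53.8 CPM at E5.0, 31.9, 37.2 and 36.7 CPM at E5.5, and 57.4, 72.7 and 67.2 CPM at E6.0, with no overlap between stages. It fell 1.54-fold from E5.0 to E5.5 (log2 fold change -0.62 ± 0.14, adjusted p = 0.0210) and rose 1.84-fold from E5.5 to E6.0 (0.88 ± 0.14, adjusted p = 0.00297). The fall was not called without any 1 of the 3 E5.5 embryos (-0.65 to -0.56 over the samples left out) or with both groups alone, whereas the rise kept its call in every alternative run. E6.0 and E5.0 differed by 0.26 ± 0.14 (adjusted p = 0.2185).

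In cultured cells Socs2 measured 29.4 to 43.4 CPM in FS, 42.3, 24.2 and 38.4 CPM in AF, and 47.5, 63.2 and 42.3 CPM in AFX. The lowest AFX sample and the highest AF sample were level to the digits given. No comparison among them passed (AFX against AF 0.55 ± 0.21, adjusted p = 0.137; FS against AFX -0.52 ± 0.18, adjusted p = 0.0950). FS against AFX passed with both groups alone (adjusted p = 0.0473). Cultured cells held 1.25-fold less Socs2 than epiblasts (log2 fold change -0.33 ± 0.10, adjusted p = 0.00894), with overlapping ranges.

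The PIM kinases, serine and threonine kinases that favour survival and are known targets of STAT signalling, come last. Pim1 (chr17:29490753-29496112, plus strand) measured 107, 74.8 and 66.3 CPM at E5.0, 89.9, 107 and 111 CPM at E5.5, and 50.7, 75.5 and 81.2 CPM at E6.0. Cultured samples measured 2.81 to 35.0 CPM with a median of 8.85, so all 12 lay below all 9 epiblasts. Pim1 was 7.32-fold lower in cultured cells (log2 fold change -2.87 ± 0.25, adjusted p = 2.47e-08) and 16.1-fold lower in FS than at E5.5 (-4.01 ± 0.37, adjusted p = 2.06e-07). Both calls held in every alternative run. No stage comparison of Pim1 passed, E6.0 against E5.5 being nearest (-0.59 ± 0.19, adjusted p = 0.103), which passed with no filter and with both groups alone.

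Among cultured cells Pim1 was highest in AF, at 26.1, 35.0 and 29.9 CPM, against 7.10, 10.6 and 6.33 CPM in AFX and 2.81 to 12.8 CPM in FS. Within FS it was uneven, with line 1 passage 11 at 11.6 and line 2 passage 12 at 12.8 CPM and the other samples at 2.81 to 4.74 CPM. Pim1 was 4.71-fold lower in FS than in AF (log2 fold change -2.24 ± 0.43, adjusted p = 0.00287). It was 3.79-fold lower in AFX than in AF (-1.92 ± 0.53, adjusted p = 0.0403), a call lost with no filter and on leaving out any 1 of the 6 samples, with values of -2.17 to -1.78. The antisense gene Gm26885 shares 488 exon bases with Pim1 and had 0 to 10 counts per sample, against 27 to 1182 for Pim1.

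Pim3 (chr15:88862186-88865726, plus strand) followed Pim1 only in part. It measured 26.4, 32.3 and 24.9 CPM at E5.0, 42.3, 51.8 and 49.6 CPM at E5.5, and 31.6, 39.7 and 33.8 CPM at E6.0, with E5.5 above both other stages. It rose 1.66-fold from E5.0 to E5.5 (log2 fold change 0.73 ± 0.17, adjusted p = 0.0240), a call lost without E5.0 embryo 4, E5.5 embryo 2 or E5.5 embryo 3 and with both groups alone. E6.0 against E5.5 gave -0.47 ± 0.17 (adjusted p = 0.148).

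In culture Pim3 measured 15.6 to 33.8 CPM in FS with a median of 18.7, 28.2, 59.5 and 26.4 CPM in AF, and 35.3, 31.2 and 24.9 CPM in AFX. AF passage 15 stood far above the rest. FS was 2.20-fold lower than E5.5 (log2 fold change -1.14 ± 0.23, adjusted p = 0.000370), and all FS samples lay below all E5.5 embryos. FS against AF did not pass (-0.80 ± 0.27, adjusted p = 0.0552), but did in DESeq2 and without FS line 2 passage 12, AF passage 14 or AF passage 16. Cultured cells and epiblasts differed by -0.31 ± 0.15 (adjusted p = 0.0770), which passed without FS line 2 passage 12 (adjusted p = 0.0221) or AF passage 15 (adjusted p = 0.00394). Per kilobase, Pim1 was 0.113 to 0.819 of Pim3 in cultured samples and 1.16 to 2.92 of it in epiblasts.

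Counted over the 9 genes, FS against AF gave 5 lower calls (Lifr, Il6st, Jak2, Stat3 and Pim1) and 0 higher, where 19.5% of all genes were called, 10.6% lower and 8.86% higher. The median log2 fold change of the 9 was -0.84, and that of all genes tested 0.02. AFX against AF gave 4 lower calls (Il6st, Jak2, Stat3 and Pim1), with 8.73% of all genes called, 4.30% higher and 4.42% lower, a median of -0.67 for the 9 and 0.01 for all. Leaving out single samples changed these 4 to between 1 and 3, with 1 left without AFX passage 14, and Stat3 was the call that held throughout. FS against AFX had a median of -0.32 for the 9 and 0.00 for all.

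The stage comparisons gave few calls. E5.5 against E5.0 gave 1 higher (Pim3) and 1 lower (Socs2), where 6.82% of all genes were called, 3.07% higher and 3.75% lower. E6.0 against E5.5 gave 1 higher (Socs2), where 4.43% were called, 1.89% higher and 2.54% lower. A further 4 of the 9 had an unadjusted p under 0.05. The share of all genes under that unadjusted cut was not taken, here or elsewhere in the text. Between cultured cells and epiblasts 6 of 9 were called, 4 higher and 2 lower, against 61.8% of all genes, 33.9% higher and 27.9% lower. In FS against E5.5 4 of 9 were called, 2 higher and 2 lower, against 43.8% of all genes, 23.0% higher and 20.8% lower, so these shares are near the background. Lifr was among the 6 (log2 fold change 0.41 ± 0.15, adjusted p = 0.0221), a call lost without AFX passage 16, E5.0 embryo 1, E5.5 embryo 3 or E6.0 embryo 3 and with 2 pooled groups.

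**Figure D4:**
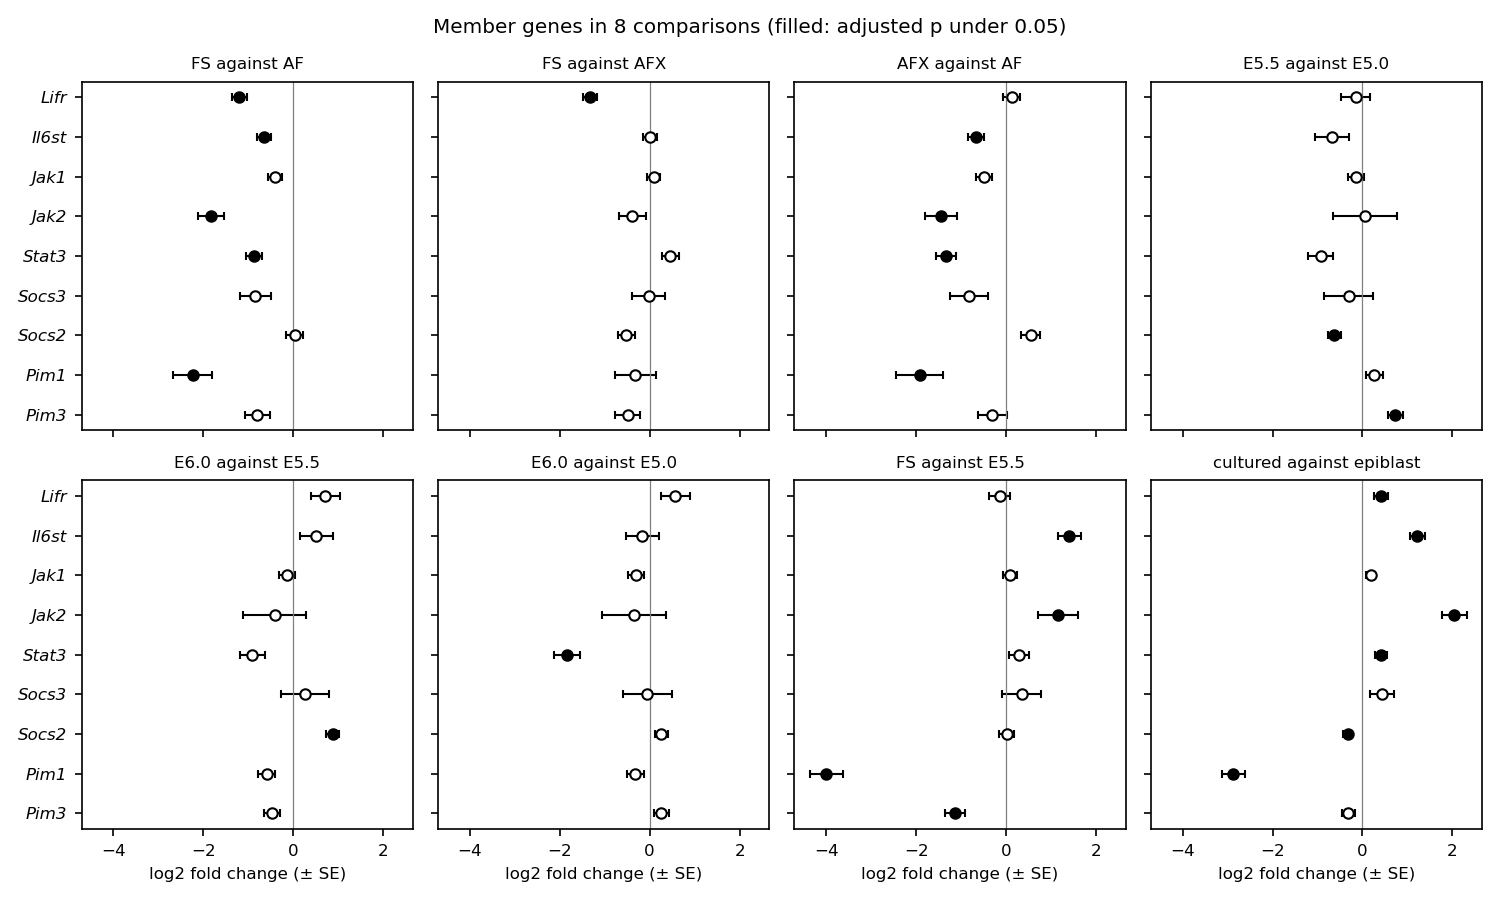
Log2 fold change (first group minus second, ± SE) of each gene in 8 comparisons, from edgeR; filled points have an adjusted p under 0.05 and the vertical line marks no change. In the panels against AF the filled points lie left of 0, from -2.24 to -0.65, and in the panel of E6.0 against E5.0 the single filled point is Stat3 at -1.84.

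Single samples often stood high in several genes at once. FS line 2 passage 12 was the highest of the 6 FS samples in 6 of the 9 genes, AF passage 15 the highest of AF in 6, E5.5 embryo 2 the highest of E5.5 in 6, and E6.0 embryo 2 the highest of E6.0 in 7. AF passage 14 was the lowest of AF in 6.

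Around the 9 genes, ligands were scarce. Of 8 listed ligands of the IL-6 family in the table, 4 were tested in the cultured fit and 3 in the epiblast fit. Lif itself measured 2.60 to 5.21 CPM in FS, 4.08 to 5.40 in AF and 3.67 to 4.74 in AFX, and 0.187 to 2.91 CPM in epiblasts, on 1 to 65 counts. It was 2.54-fold higher in cultured cells than in epiblasts (log2 fold change 1.35 ± 0.30, adjusted p = 0.000557) and was called in no other comparison. Il6, the founding member of the family, was at 0 counts in all samples outside AF and at most 3 counts there, and Il11 had at most 22 counts in any sample.

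Among 7 other receptor chains, Osmr, which pairs with gp130 for oncostatin M, had at most 5 counts in any sample, and Il6ra, the IL-6 binding chain, at most 16. Cntfr, the ciliary neurotrophic factor receptor that joins Lifr and gp130, was 2.41-fold higher in cultured cells (20.0 to 46.5 CPM) than in epiblasts (8.50 to 17.9 CPM; log2 fold change 1.27 ± 0.15, adjusted p = 1.79e-07). Il11ra1, the IL-11 receptor, was 1.95-fold higher (0.96 ± 0.28, adjusted p = 0.00489).

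Other JAKs and STATs were called higher in culture: 7 of 8 passed as higher and 0 as lower in cultured cells against epiblasts, where 33.9% of all genes were called higher (list median 1.65, all genes 0.09). Stat5b, a mediator of growth hormone and prolactin signals, measured 6.82 to 25.7 CPM in culture and 2.01 to 6.50 in epiblasts (log2 fold change 1.64 ± 0.19, adjusted p = 1.58e-07). Jak3, a kinase of lymphoid cytokine receptors, was lower in FS and in AFX than in AF (-0.92 ± 0.21, adjusted p = 0.00645, and -1.59 ± 0.26, adjusted p = 0.00220). Stat4 had at most 1 count in any E5.0 embryo and 11, 23 and 8 counts in E5.5 embryos 1, 2 and 3.

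Of the other inhibitors, 14 genes of the SOCS, PIAS and phosphatase families, 4 were called higher and 5 lower in cultured cells against epiblasts, where 33.9% of all genes were called higher and 27.9% lower. In FS against AF 1 was higher (Pias3) and 1 lower (Cish), where 8.86% of all genes were called higher and 10.6% lower. Both counts lie near or under the background. Socs1, an interferon-responsive inhibitor of JAKs, fell 8.48-fold from E5.0 to E6.0 (4.49 to 9.20 CPM to 0.527 to 1.05 CPM; log2 fold change -3.08 ± 0.64, adjusted p = 0.00371). Socs5 was 2.45-fold higher in culture than in epiblasts (1.29 ± 0.16, adjusted p = 3.72e-07). Pias3, an inhibitor of STAT3, was 2.08-fold lower in FS line 2 than in line 1 (-1.06 ± 0.20, adjusted p = 0.00677), at means of 13.9 and 28.8 CPM.

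Of 15 listed STAT3 targets, 14 were tested in FS against AF: 8 were called lower and 0 higher, and 13 of 14 had a negative fold change (median -1.52). Of all genes, 10.6% were called lower and 8.86% higher, with a median of 0.02. Klf5 and Tfcp2l1, which support naive pluripotency, were 6.72-fold and 3.44-fold lower in FS (-2.75 ± 0.32, adjusted p = 5.37e-05; -1.78 ± 0.44, adjusted p = 0.00978). Klf4, another factor of that network, measured 0.938 to 1.80 CPM in FS and 4.02 to 5.07 CPM in AF (-1.74 ± 0.31, adjusted p = 0.00115). Myc was 2.77-fold lower (-1.47 ± 0.36, adjusted p = 0.0129) and Gbx2 did not pass (-1.04 ± 0.86, adjusted p = 0.446). Bcl3 had at most 4 counts in any FS sample and 11 to 36 in AF.

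In AFX against AF, 5 of the 14 targets were called lower and 0 higher (median -1.30), against 4.42% lower and 4.30% higher of all genes (median 0.01). In FS against AFX edgeR called 0 of 14 (median -0.22), 3 having an unadjusted p under 0.05. From E5.0 to E6.0, 5 of 13 were called lower and 0 higher, with 5 of the 13 fold changes positive (median -0.64), against 11.6% lower and 10.2% higher of all genes (median -0.02). Targets were also called lower where Stat3 was not. In FS against E5.5, where Stat3 did not pass, 7 of 15 targets were called lower and 0 higher, with 14 negative (median -1.59, all genes 0.08, 20.8% of all genes called lower). In cultured cells against epiblasts, where Stat3 was called higher, 7 of 15 targets were called lower and 1 higher (median -0.58, all genes 0.09, 27.9% called lower and 33.9% higher). Ier3, one of the 5 called from E5.0 to E6.0, had at most 2 counts in any E6.0 embryo and 57, 4 and 12 counts in E5.0 embryos 1, 2 and 4, so its level at E5.0 rests mainly on embryo 1. Irf1, an interferon-regulated transcription factor named after its values were seen, measured 19.7 to 38.1 CPM in AF, 7.03 to 9.49 in FS and 6.02 to 8.34 in AFX, and 86.3 to 131 CPM at E5.0 but 23.2 to 32.7 at E6.0. Its log2 fold changes were -1.77 ± 0.20 (FS against AF, adjusted p = 3.06e-05), -2.04 ± 0.25 (AFX against AF, adjusted p = 0.000335) and -2.02 ± 0.27 (E6.0 against E5.0, adjusted p = 0.000252), the 3 comparisons in which Stat3 was called lower. Irf1 was also lower in cultured cells than in epiblasts (-2.20 ± 0.15, adjusted p = 2.39e-11), where Stat3 was higher, and in FS than at E5.5 (-2.66 ± 0.21, adjusted p = 2.42e-09). The marker sums given beside Stat3 differ between the same groups, and their part in the target results was not tested.

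**Figure D5:**
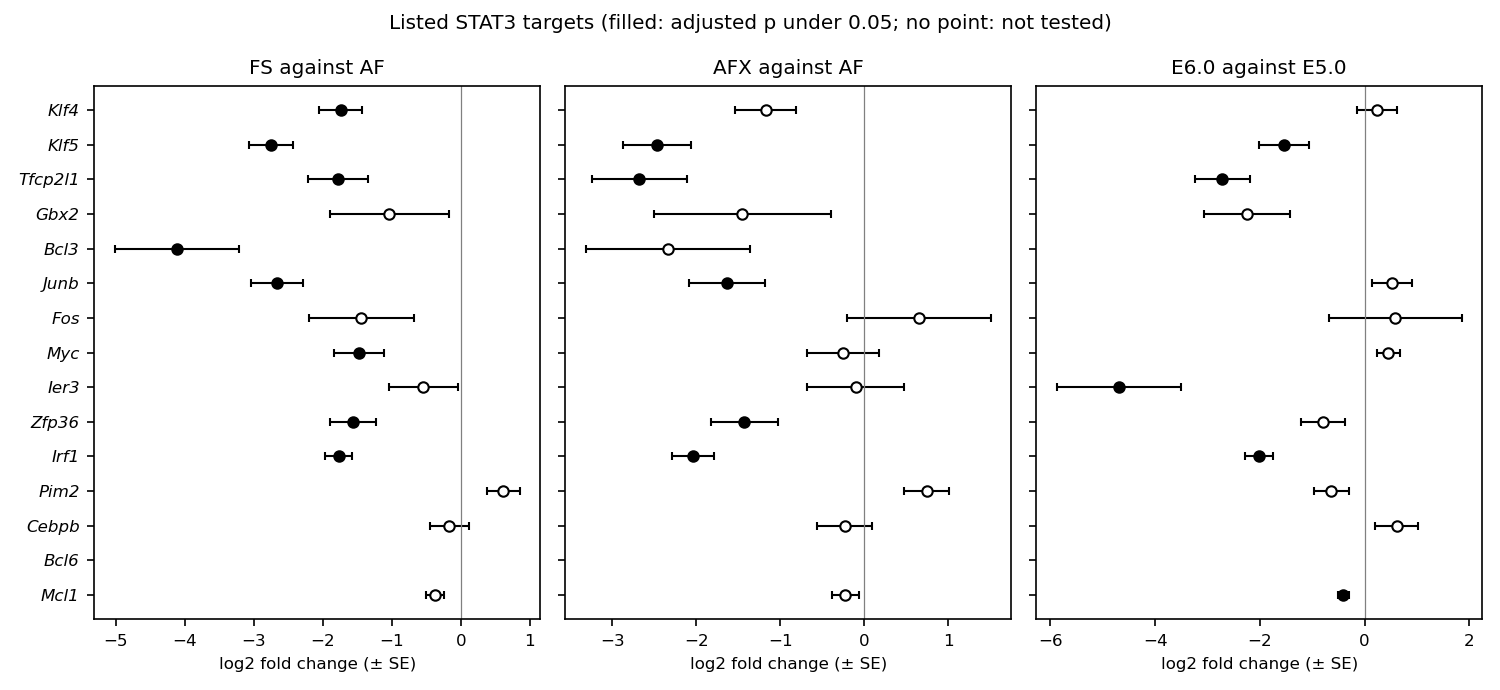
Log2 fold change (± SE, edgeR) of the 15 listed STAT3 targets in 3 comparisons; filled points have an adjusted p under 0.05, open points do not, and a missing point was not tested. All filled points lie left of 0: 8 for FS against AF, 5 for AFX against AF and 5 for E6.0 against E5.0.

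The letters around start sites were searched for TTCNNNGAA, the spaced palindrome that STAT dimers are known to bind, which reads the same on both strands, in RefSeq windows (GRCm38.p6) of 250 bases before to 50 after each start. Of 32851 windows 8.30% held it, and of 27025 genes 9.55%. Among the 9 genes 8 had a window, and 1 of the 8, Socs3, held the motif; Socs2 was not searched. Of 13 listed targets with a window 3 held it (Bcl6, Irf1 and Zfp36), and of 8 other inhibitors 1 (Cish). The sites of Socs3 and of the 3 genes called lower in FS than in AF (the targets Irf1 and Zfp36 and the inhibitor Cish) are shown with 10 bases on each side, 5′ to 3′ on the gene's strand, the motif in capitals, to set Socs3 beside motif-bearing genes that were called. Bcl6, with 4 sites, was not tested in that comparison and is not shown.

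Socs3: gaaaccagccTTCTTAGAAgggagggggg

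Irf1: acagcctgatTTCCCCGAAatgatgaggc

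Zfp36: acagcctgacTTCTGCGAAccgacagtcg

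Cish, first site: ccgcccagttTTCCTGGAAagttcttgga

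Cish, second site: tcctggaaagTTCTTGGAAatctgtcaaa

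The Socs3 stretch is chr11:117969502-117969530 (minus strand), its motif starting 154 bases before the start site; the Irf1 stretch is chr11:53769914-53769942 (plus strand), the Zfp36 stretch chr7:28379227-28379255 (minus strand), and the Cish stretches chr9:107296649-107296677 and chr9:107296660-107296688 (plus strand), which overlap although their motifs do not. A match describes these letters only. Socs3, with the motif, passed no comparison. Irf1 passed the comparisons above, and Zfp36 was lower in FS and AFX than in AF (-1.57 ± 0.33, adjusted p = 0.00388, and -1.43 ± 0.40, adjusted p = 0.0383). Cish was lower in FS (1.25 to 2.97 CPM) than in AF (2.35 to 10.5 CPM; -1.58 ± 0.47, adjusted p = 0.0290), with overlapping ranges. In cultured cells against epiblasts Cish was called higher, and Irf1 and Zfp36 lower. Irf1, Zfp36 and Cish were shown because they were called in FS against AF, so their calls there say nothing about the motif.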

How the data were processed

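The deposited table held raw counts per gene, whole numbers with differing totals, 1 column per sample. Per the submitters' processing notes, Trim Galore, TopHat2 2.1.0, featureCounts 1.5.0 and mm10 were used; the annotation release and strand setting are not given in the sources used here. Per the labels' protocols, total RNA was extracted with the PicoPure kit.

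Tests were run with edgeR 4.0.16 under R 4.3.3: filterByExpr with the groups of the fit, TMM, robust quasi-likelihood fits and two-sided F-tests, adjusted by Benjamini-Hochberg over 16052 (cultured), 14228 (epiblast) or 16614 (all samples) genes, with a threshold of 0.05. Cultured comparisons used the 12 cultured samples (FS split by line only for line 2 against line 1), stage comparisons the 9 epiblasts, and FS against E5.5 and cultured against epiblast (groups weighted equally) all 21. Alternatives were DESeq2 1.42.0, DESeq2 size factors, a filter of at least 5 CPM on average or none, the compared groups alone, each FS line alone or separate, 2 pooled groups, no ribosomal RNA-like loci (4 found), a replicate block and each sample left out. Steps were tested on simulated data.

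GENCODE M21 (GRCm38) matched 33683 of 33861 identifiers, all 9 genes included, and gave coordinates and exon lengths; RefSeq gave start site windows. The 21 pairs of replicates differed by more than sampling noise (chi-square per degree of freedom 4.84 to 29.0). The 9 genes, the pathway and marker lists and the tests were chosen with earlier results of these data known. Named were the 9 genes, up to 4 called genes per pathway list with the largest change, Lif, Il6, Osmr, Il6ra, Klf4, Tfcp2l1, Gbx2 and Myc whatever their result, and for Lifr, Stat3 and Socs3 the 3 genes with the most similar log2 CPM (prior count 2, mean of at least 10 CPM); Irf1 and Zfp36 were added after their values were seen. Some genes that this rule names are not reported here. Figures used matplotlib 3.10.9. A floor of 3 counts covers counting error only.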

Additional observations from a re-analysis of the deposited data

Results flagged for a closer look

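Il6st stood out in 1 FS sample: line 2 passage 12 measured 35.1 CPM, and the other 5 FS samples 25.2 to 28.4 CPM. Its gap to the next sample was 0.680 of the range of the 6 samples, above the critical value of 0.625 of Dixon's test. The test was run on each of the 9 genes, and only Il6st was flagged. Chance alone marks about 1 in 20 such groups, so a flag somewhere among 9 genes is not rare.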

How the results depend on the processing

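The 9 genes in 9 comparisons gave 81 results, of which 24 passed the threshold. Over 446 alternatives of those 24, 409 kept the call, 37 lost it and 0 changed direction. Over 853 alternatives of the others, 783 stayed as they were, 20 passed and 50 changed direction.

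Leaving out 1 sample at a time, the number of genes called ran from 5 to 8 for FS against AF, 1 to 3 for AFX against AF and 0 to 4 for E5.5 against E5.0. The upper end for FS against AF, 8, came without FS line 2 passage 12, and for E5.5 against E5.0 the count was 4 without E5.0 embryo 1, 1 without E5.0 embryo 4 or E5.5 embryo 1, and 0 without E5.5 embryo 2 or 3. With the compared groups alone the counts were 0 for E5.5 against E5.0, 3 for E6.0 against E5.5 and 3 for AFX against AF. FS against AFX then gave 2, Lifr and Socs2. With no filter the count was 2 for E6.0 against E5.5. The cause was not tested.

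Passage and embryo numbers did not pair the samples: correlations of same-numbered deviations were -0.12, -0.09 and 0.20 for AF and AFX and -0.05 to 0.10 for epiblasts. With a replicate block of passage number AFX against AF gave 3 calls, Il6st being lost (adjusted p = 0.0835). With a replicate block of embryo number E5.5 against E5.0 gave 0, E6.0 against E5.5 gave 1 and E6.0 against E5.0 gave 2, Lifr being gained. With the embryo block, E5.5 against E5.0 changed direction for Lifr (0.24), Socs3 (0.0463) and Jak2 (-0.0217), and E6.0 against E5.0 for Il6st (0.29) and Socs3 (0.39), none of them called. Other changes of direction, none called, were Socs2 in FS against E5.5 with both groups alone (-0.0203), Il6st in FS against AFX with FS line 1 alone (-0.0461), and with FS line 2 alone Socs3 in FS against AFX (0.23) and Lifr in FS against E5.5 (0.00964).

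Without single samples, results that changed direction, none called, ranged on the log2 scale as follows. In FS line 2 against line 1, Pim1 ran from -0.64 to 1.03, Socs2 from -0.17 to 0.10, Il6st from -0.00349 to 0.22, Jak1 from -0.0864 to 0.28 and Pim3 from -0.14 to 0.45. In E6.0 against E5.0, Socs3 ran from -0.47 to 0.39, Il6st from -0.53 to 0.13 and Jak2 from -0.98 to 0.0538. In E5.5 against E5.0, Lifr ran from -0.39 to 0.0728, Socs3 from -0.73 to 0.12, Jak2 from -0.56 to 0.38 and Jak1 from -0.31 to 0.00939. In E6.0 against E5.5, Jak1 ran from -0.29 to 0.0217 and Jak2 from -1.04 to 0.22. In FS against AFX, Socs3 ran from -0.26 to 0.13, Il6st from -0.13 to 0.19 and Jak1 from -0.0147 to 0.14. Socs2 ran from -0.18 to 0.19 in FS against AF and from -0.0494 to 0.0680 in FS against E5.5, where Jak1 ran from -0.10 to 0.24. In AFX against AF, Pim3 ran from -0.53 to 0.16 and Lifr from -0.0351 to 0.26. Depth limits Jak2 and Socs3 most, each with as few as 7 counts in a sample.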
